A study of Mus musculus with 6 samples.

Results

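The genes that carry fatty acids into muscle fibres, store them as triglyceride and oxidise them in mitochondria were followed in the hind-limb muscle of mice that lack Baf155 in the fibre. Baf155, encoded by Smarcc1, is a core subunit of the SWI/SNF (BAF) chromatin remodelling complex. The set was a list of 39 genes grouped by their known roles, put together with earlier results of these data known and by a rule that used no measured value. All 39 were among the 20632 genes of the table, and all 39 passed the filter on low counts that left 12116 genes for testing. RNA came from 6 male mice aged 3 months that had not been exercised, of the C57BL/6J strain (C57BL/6 in the labels). Of these, 3 were Baf155 ΔMF mice (Baf155 -/- in the labels) and 3 were Baf155 WT controls (wild type in the labels). The ΔMF mice carried MCK-Cre and homozygous floxed Baf155 alleles, and the controls carried the floxed alleles without Cre. MCK-Cre recombines in skeletal and cardiac muscle fibres, so the other cells of a muscle keep Baf155, and the tissue of one mouse was several hind-limb muscles pooled. Nothing other than the genotype was stated to differ between the groups.

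Each library is named here by genotype and a number in accession order. The sample titles carried a further prefix whose meaning was not given. WT mouse 1 and ΔMF mice 1 and 2 had the prefix MS13, WT mice 2 and 3 had MS15, and ΔMF mouse 3 had MS14. Library totals ran from 8426022 to 12469335 estimated counts. Levels are given in CPM, each gene's counts scaled to a common library size after TMM correction for RNA composition, and a count of 3 corresponded to between 0.230 and 0.351 CPM. Smarcc1 measured 23.4, 19.5 and 17.0 CPM in WT mice 1 to 3 and 7.05, 6.54 and 7.72 CPM in ΔMF mice 1 to 3, a log2 fold change of −1.49 ± 0.15 (SE, edgeR adjusted p = 0.00907). The summed level of 7 skeletal muscle markers was 141590, 117112 and 108313 CPM in WT mice 1 to 3. In ΔMF mice 1 to 3 it was 142839, 136084 and 125815 CPM, so the MS15 mice were lowest.

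Long-chain fatty acids reach a muscle fibre after lipoprotein lipase frees them from circulating triglyceride, and they cross the membrane with the help of CD36 and FATP proteins. Acyl-CoA synthetases activate them, and the carnitine palmitoyltransferases with their translocase move them into the mitochondrial matrix, where each round of β-oxidation passes electrons to the electron transfer flavoproteins. Malonyl-CoA, made by acetyl-CoA carboxylase and removed by malonyl-CoA decarboxylase, holds back the first carnitine step. Fatty acids that are not burned are esterified into lipid droplets, from which lipases release them again, and free fatty acids act as ligands of the PPAR nuclear receptors, which switch on many genes of the same pathway in fasting and in endurance-trained muscle.

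PPAR binds DNA with RXR at direct repeats of the half-site AGGTCA separated by 1 base. The stretches before the transcription start of Ucp3 and Plin2, the genes of the set whose genotypes did not overlap, and of Ucp2, the neighbour of Ucp3, are shown here so that these letters can be seen in place. They are RefSeq sequences of build GRCm38.p6, written 5′ to 3′ on the strand of the gene, with bases of annotated exons left out. Capitals mark a match to the repeat in which at most 2 of its 12 letters differ, on either strand.

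Ucp3 (chr7:100472741-100472989, plus strand): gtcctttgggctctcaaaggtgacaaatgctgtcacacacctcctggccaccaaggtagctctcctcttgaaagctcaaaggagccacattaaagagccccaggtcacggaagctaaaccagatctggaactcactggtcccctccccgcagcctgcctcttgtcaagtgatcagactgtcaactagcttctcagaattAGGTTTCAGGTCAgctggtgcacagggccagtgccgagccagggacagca
Plin2 (chr4:86670061-86670309, minus strand): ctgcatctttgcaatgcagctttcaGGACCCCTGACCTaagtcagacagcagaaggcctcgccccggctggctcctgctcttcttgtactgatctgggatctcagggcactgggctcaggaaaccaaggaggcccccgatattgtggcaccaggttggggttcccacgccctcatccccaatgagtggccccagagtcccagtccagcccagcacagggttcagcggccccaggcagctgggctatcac
Ucp2 (chr7:100493108-100493336, plus strand): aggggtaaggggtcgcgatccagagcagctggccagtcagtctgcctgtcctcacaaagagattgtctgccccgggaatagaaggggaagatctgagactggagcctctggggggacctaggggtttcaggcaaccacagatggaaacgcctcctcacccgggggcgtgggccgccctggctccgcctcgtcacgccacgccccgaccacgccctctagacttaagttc

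The repeat in the Ucp3 stretch lay 37 bases before its end, and the repeat in the Plin2 stretch was read on the opposite strand 211 bases before its end. The Ucp2 stretch held no such match. Ucp2 lies 6904 bases beyond the end of Ucp3 on the same chromosome and strand. A window of 250 bases before the start was present for 31 of the 39 genes, in 36 windows, and those of Acaa2, Angptl4, Cpt1b, Crat, Decr1, Dgat1, Dgat2 and Lpl were not matched. A repeat with at most 2 differing letters was found in 5 of these 36 windows (13.9%), those of Ucp3, Plin2, Cd36, Echs1 and Etfa, against 3.24% of the 32841 windows of all genes. The half-site alone, on either strand and counted also where it lies in a repeat, was found in 8 of the 36 windows (22.2%) and in 14.0% of all windows. Known targets of PPAR were among the genes the list was chosen to hold. A larger share of windows with its repeat was therefore built into the list and is not a result about the set. These are matches of letters in a short window, and no binding was measured.

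Hadha and Hadhb, which encode the α and β subunits of the mitochondrial trifunctional protein, start back to back. Their annotated starts are 85 bases apart, and the whole stretch between them is shown on the plus strand because both genes are read from it. It held neither the repeat nor the half-site.

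Hadha-Hadhb (chr5:30155163-30155247): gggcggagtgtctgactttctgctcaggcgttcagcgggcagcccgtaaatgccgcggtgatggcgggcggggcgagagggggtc

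The comparison of the genotypes asked whether loss of Baf155 from the fibre moved these genes in resting muscle. No gene of the set passed the test across all genes. By edgeR's quasi-likelihood method, 0 of the 39 reached an adjusted p below the limit of 0.05, a limit that 0.0248% of all tested genes reached, and the smallest adjusted p in the set was 0.601. DESeq2 and limma-voom also called 0. Before adjustment, with the same limit of 0.05, 2 genes were higher in Baf155 ΔMF muscle, Etfa and Ucp3, with 3.35% of all genes so called, and 2 were lower, Ucp2 and Plin2, with 4.6% of all genes so called. DESeq2 gave 2 genes and limma-voom 3 at that limit, with 4.99% and 7.76% of all genes.

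Differences were small throughout the pathway. The log2 fold changes of ΔMF over WT ran from −0.61 (Angptl4) to 0.31 (Pdk4), and 36 of the 39 were under 0.3 in size. Their median was 0.10, beside −0.00 over all tested genes. The 95% interval of the fold change lay within a 1.5-fold difference in either direction for 32 of the 39 genes. The 7 whose intervals reached further were Angptl4, Acacb, Pnpla2, Dgat1, Ppard, Pdk4 and Ucp2. Precision was somewhat better here than in the table as a whole, with a median SE of 0.11 on the log2 scale against 0.13 over all genes.

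**Figure D1:**
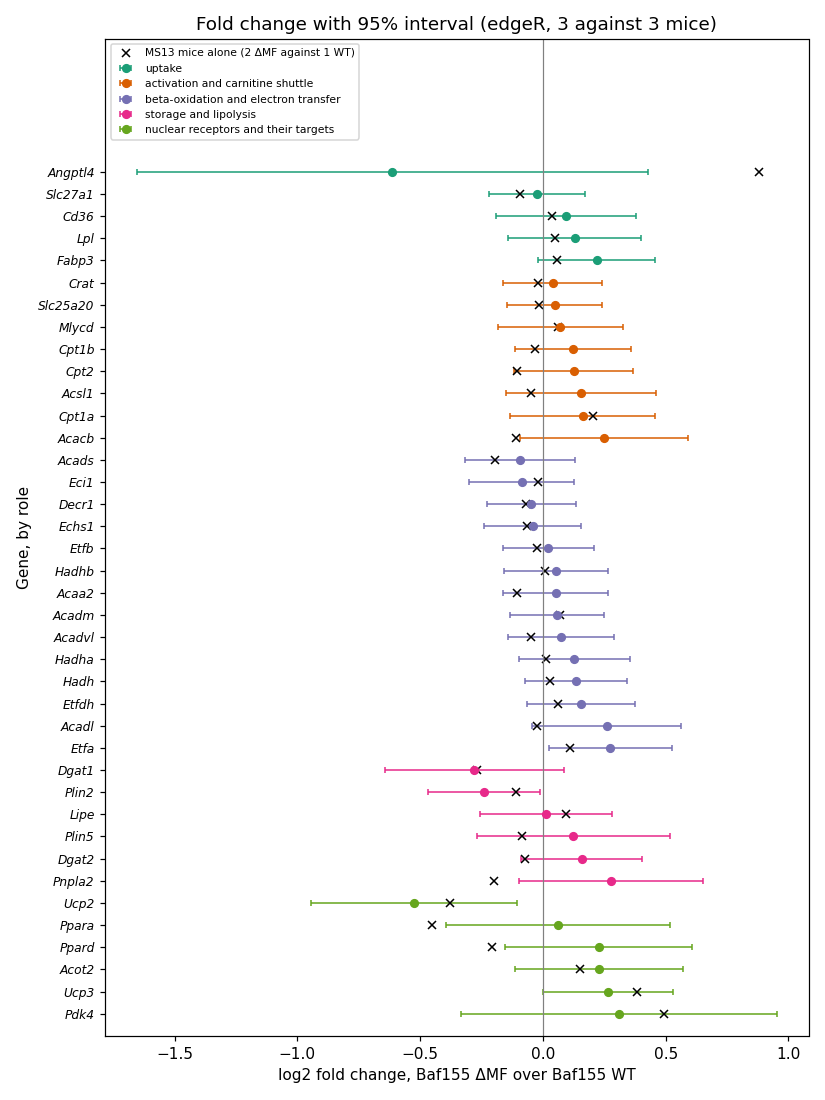
Log2 fold change of Baf155 ΔMF over Baf155 WT (x axis) for each of the 39 genes (y axis, grouped and coloured by role), with points for the edgeR estimate from 3 against 3 mice, bars for its 95% interval and crosses for the difference between the MS13 mice alone (2 ΔMF against 1 WT, no interval). Most points sit between −0.3 and 0.3, the intervals of Etfa, Ucp3, Plin2 and Ucp2 do not reach 0, and the crosses of 23 genes are below 0.

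More genes of the set had a higher than a lower mean in ΔMF muscle. The fold change was above 0 in 30 of the 39, where 49.8% of all genes were above 0, but in 23 of the 39 when libraries were scaled by their total count alone and in 29 with upper quartile scaling. The count differed with the mice compared. It was 31, 26 and 26 of the 39 without WT mouse 1, 2 or 3, and 28, 25 and 31 without ΔMF mouse 1, 2 or 3. Between the MS13 mice, 1 WT and 2 ΔMF, 16 genes were higher and 23 lower in ΔMF muscle, the median difference was −0.02 on the log2 scale, and 34 of the 39 differences were under 0.3 in size. A fit with the prefix as a term gave the same 16 higher and 23 lower. Only MS13 holds both genotypes, so the genotype term of that fit rests on the MS13 mice and is not a separate check.

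**Figure D2:**
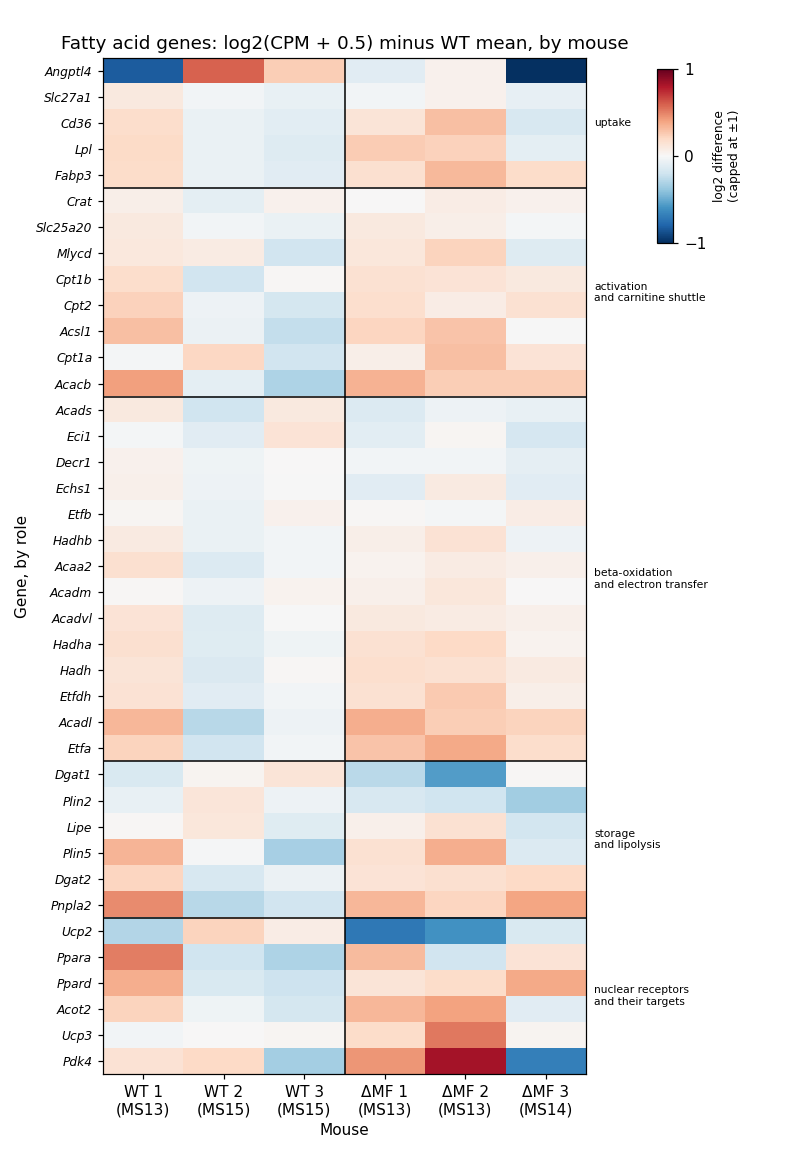
Level of each gene in each mouse as log2(CPM + 0.5) minus the mean of the 3 WT mice (colour, capped at ±1), with mice in columns and genes in rows by role. WT mouse 1 lies within the range of the ΔMF mice in 24 of the 39 rows, and Angptl4 and Pdk4 show the strongest colours.

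Genes of uptake overlapped between the genotypes. Cd36, the fatty acid translocase of the plasma membrane, measured 496, 418 and 408 CPM in WT mice 1 to 3 and 479, 540 and 392 CPM in ΔMF mice 1 to 3. The ΔMF mice held both the highest and the lowest value, and the log2 fold change was 0.10 ± 0.13 (SE), with a 95% interval from −0.19 to 0.38. Lpl, lipoprotein lipase, was at 384, 322 and 308 CPM in the WT mice and at 401, 394 and 315 CPM in the ΔMF mice. ΔMF mouse 3 lay among the WT mice, and the log2 fold change was 0.13 ± 0.12 (SE). Fabp3, the fatty acid binding protein of muscle cytosol, averaged 384 ± 44.8 CPM in WT and 447 ± 28.5 CPM in ΔMF (SD, n = 3 each). Slc27a1, which encodes the transporter FATP1, differed by −0.02 ± 0.09 (SE) on the log2 scale.

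Angptl4, a secreted inhibitor of lipoprotein lipase and a PPAR target, was the least abundant gene of the set and the most variable. WT mice 1 to 3 had 2.14, 6.58 and 5.09 CPM and ΔMF mice 1 to 3 had 3.84, 4.36 and 0.819 CPM. The lowest value belonged to a ΔMF mouse and the next lowest to a WT mouse, so the genotypes overlapped. The log2 fold change was −0.61 with a 95% interval from −1.65 to 0.43, and between the MS13 mice alone it was 0.88.

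Among the 8 genes of activation and the carnitine shuttle, all had a higher mean in ΔMF muscle, though Slc25a20 and Crat were below 0 with scaling by the total count alone and 6 of the 8 were below 0 with the prefix in the fit. Their fold changes ran from 0.04 to 0.25 on the log2 scale. Cpt1b, the muscle form of carnitine palmitoyltransferase 1 and the gated step of mitochondrial entry, was at 456, 354 and 408 CPM in WT and at 448, 444 and 432 CPM in ΔMF. All 3 ΔMF values fell inside the WT range, and the log2 fold change was 0.12 ± 0.11 (SE), with a 95% interval from −0.11 to 0.36. Cpt1a, the liver form, measured 13.7, 16.1 and 12.1 CPM in WT and 14.5, 17.2 and 15.3 CPM in ΔMF, and again the groups overlapped, with a log2 fold change of 0.16 ± 0.13 (SE). Acsl1, the main acyl-CoA synthetase of muscle, averaged 346 ± 67.2 CPM in WT and 385 ± 39.7 CPM in ΔMF. Cpt2, the inner-membrane transferase, and Slc25a20, the carnitine-acylcarnitine translocase, differed by 0.13 ± 0.11 and 0.05 ± 0.09 (SE) on the log2 scale. Crat, carnitine acetyltransferase, which buffers acetyl-CoA as acetylcarnitine, averaged 437 ± 26.2 CPM in WT and 449 ± 10.9 CPM in ΔMF (SD, n = 3 each), a log2 fold change of 0.04 ± 0.09 (SE).

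Acacb encodes the mitochondrial acetyl-CoA carboxylase that makes malonyl-CoA. It is described, as are Etfa, Acadl and Fabp3, because of the values it showed. Its levels were 349, 245 and 212 CPM in WT and 334, 312 and 311 CPM in ΔMF. WT mouse 1 was above all 3 ΔMF mice and the other WT mice were below them. Mlycd, malonyl-CoA decarboxylase, averaged 73.2 ± 8.05 CPM in WT and 76.9 ± 9.50 CPM in ΔMF. The ratio of Mlycd to Acacb per kb of transcript was 1.14 ± 0.19 in WT and 0.98 ± 0.12 in ΔMF (SD, n = 3 each), a difference within the spread between mice.

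The 14 genes of β-oxidation and electron transfer had log2 fold changes from −0.09 to 0.27. Acadvl, the very long-chain acyl-CoA dehydrogenase that starts the cycle on long chains, was at 388, 322 and 351 CPM in WT and at 378, 374 and 366 CPM in ΔMF. Its ΔMF values varied least of the set within that genotype, with a coefficient of variation of 1.63%, and lay inside the WT range. Hadha measured 335, 276 and 291 CPM in WT and 333, 344 and 308 CPM in ΔMF, with a log2 fold change of 0.13 ± 0.10 (SE). Its partner Hadhb differed by 0.05 ± 0.10 (SE). The Hadha to Hadhb ratio per kb was 0.348 ± 0.016 in WT and 0.368 ± 0.0044 in ΔMF (SD, n = 3 each). These genes share the short stretch printed above, and their ratio ran from 0.335 to 0.371 over the 6 mice.

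Of the other dehydrogenases, Acadm for medium chains differed by 0.06 ± 0.09 and Acads for short chains by −0.09 ± 0.10 on the log2 scale (SE). Acadl, the long-chain form, was at 149, 97.9 and 115 CPM in WT and at 153, 141 and 139 CPM in ΔMF. WT mouse 1 lay within the ΔMF range and the MS15 mice below it, and the log2 fold change was 0.26 with a 95% interval from −0.04 to 0.56. Hadh, Echs1, Acaa2, Eci1 and Decr1, which complete the cycle or prepare unsaturated chains for it, had fold changes between −0.09 and 0.13. In all, 10 of the 14 genes of oxidation and electron transfer had a higher mean in ΔMF muscle, against 6 of the 14 when scaled by total count alone or with the prefix in the fit.

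Electron transfer flavoprotein takes the electrons of these dehydrogenases to the respiratory chain. Etfa, its α subunit, measured 83.6, 62.7 and 70.1 CPM in WT and 87.3, 93.1 and 80.9 CPM in ΔMF. WT mouse 1 again lay among the ΔMF mice. The log2 fold change was 0.27 ± 0.11 (SE), with an edgeR adjusted p of 0.601, and 0.11 between the MS13 mice. Etfb, the β subunit, differed by 0.02 ± 0.08 and Etfdh, the oxidoreductase that hands the electrons to ubiquinone, by 0.16 ± 0.10 (SE).

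**Figure D3:**
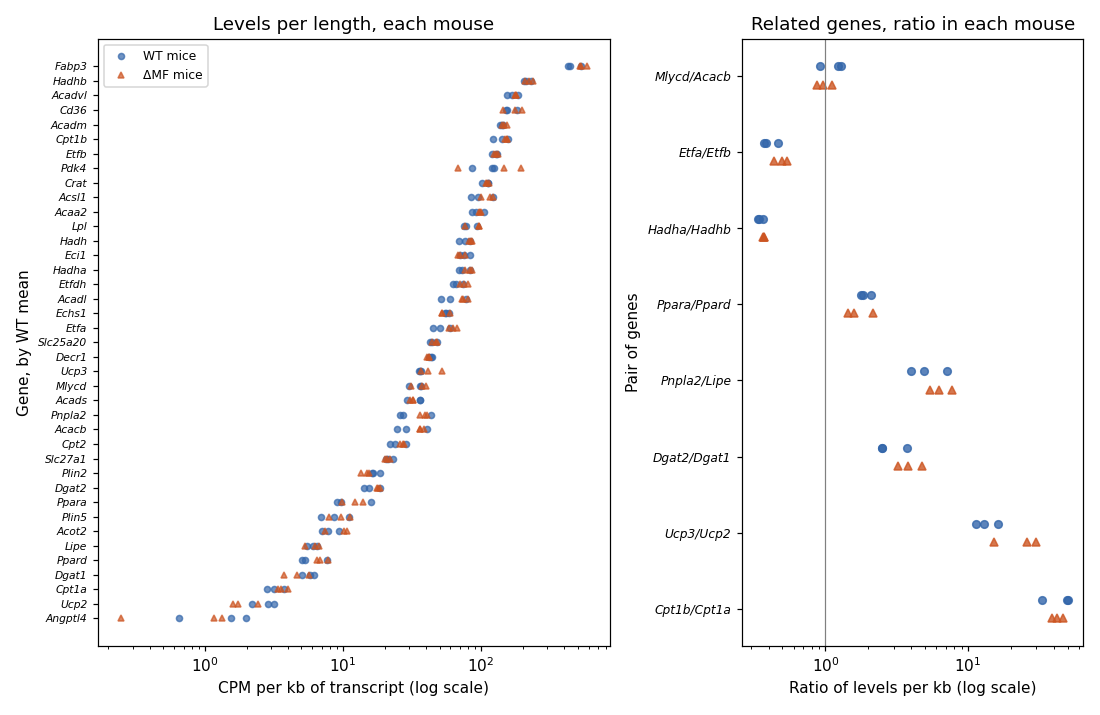
Left, level of each gene in each mouse in CPM per kb of its principal transcript (log axis, circles for WT and triangles for ΔMF), ordered by the WT mean. Right, the ratio of levels per kb for 8 pairs of related genes in each mouse (log axis), where the Cpt1b to Cpt1a ratio is near 44.1 in WT and 42.2 in ΔMF and the Ucp3 to Ucp2 ratio is 13.5 and 23.6.

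Levels per length set the genes in order. Per kb of the principal annotated transcript, Fabp3 was the most abundant gene at 467 ± 54.4 CPM per kb in WT, followed by Hadhb at 215 ± 12.2, Acadvl at 169 ± 15.9 and Cd36 at 163 ± 17.8 (SD, n = 3). Acadvl and Cd36 did not differ beyond their spread. The lowest were Angptl4 at 1.39 ± 0.683, Ucp2 at 2.75 ± 0.506 and Cpt1a at 3.24 ± 0.468 CPM per kb, with Cpt1a and Ucp2 within their summed SDs of each other. Cpt1b exceeded Cpt1a 44.1 ± 9.91 times in WT and 42.2 ± 3.78 times in ΔMF. The order rests on the annotated lengths.

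Genes of storage and lipolysis had differences of both signs, with a higher ΔMF mean in 4 of 6, but in 3 of 6 with scaling by total count or the upper quartile, in 1 of 6 with the prefix in the fit and in 2 of 6 without ΔMF mouse 2 or without WT mouse 3. Plin2, perilipin 2, coats lipid droplets and is itself stabilised by them. It measured 30.8, 35.3 and 31.2 CPM in WT and 28.9, 28.1 and 25.4 CPM in ΔMF. Every ΔMF mouse lay below every WT mouse, the only such gene of the set, where 5.57% of all genes were arranged in this way. The log2 fold change was −0.24 ± 0.10 (SE, edgeR adjusted p = 0.611), and −0.11 between the MS13 mice. The gene lies on chromosome 4 from 86648386 to 86670060 on the minus strand.

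Pnpla2, adipose triglyceride lipase, starts the breakdown of droplet triglyceride. WT mice 1 to 3 had 95.3, 56.8 and 60.0 CPM and ΔMF mice 1 to 3 had 86.5, 79.7 and 90.4 CPM. The highest value of all belonged to WT mouse 1 and the ΔMF mice lay between it and the other WT mice. The log2 fold change was 0.28 with a 95% interval from −0.10 to 0.65, and it turned to −0.20 between the MS13 mice. Lipe, hormone-sensitive lipase, differed by 0.01 ± 0.12 (SE), and changed sign with scaling by total count or the upper quartile. Pnpla2 exceeded Lipe per kb 5.34 ± 1.63 times in WT and 6.47 ± 1.19 times in ΔMF.

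Dgat1 and Dgat2 encode unrelated enzymes that add the last acyl chain of triglyceride. Dgat1 was at 9.52, 10.9 and 11.7 CPM in WT and at 8.76, 7.06 and 10.8 CPM in ΔMF, with ΔMF mouse 3 inside the WT range and a log2 fold change of −0.28 ± 0.17 (SE). Dgat2 averaged 36.5 ± 5.15 CPM in WT and 40.7 ± 0.912 CPM in ΔMF. The Dgat2 to Dgat1 ratio per kb was 2.89 ± 0.70 in WT and 3.94 ± 0.79 in ΔMF, and the mice of the genotypes overlapped. Plin5, the perilipin of oxidative tissue that tethers droplets to mitochondria, differed by 0.12 ± 0.18 (SE).

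**Figure D4:**
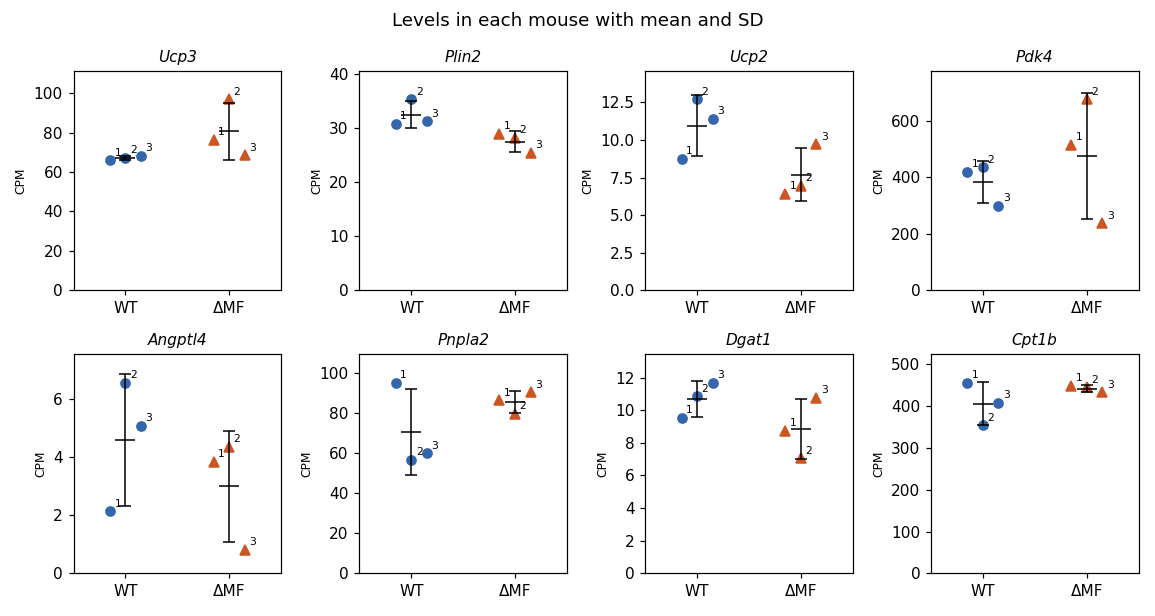
Level in CPM (y axis, from 0) of 8 genes in each mouse, with circles for WT, triangles for ΔMF, mouse numbers beside the points, and bars for the mean and SD of 3 mice. Ucp3 and Plin2 are the genes whose genotypes do not overlap, by a margin of 68.1 against 68.5 CPM for Ucp3, while Pdk4 spans 236 to 676 CPM within the ΔMF mice.

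The nuclear receptors overlapped between the genotypes, and neither passed the test. Ppara measured 40.3, 24.4 and 22.7 CPM in WT and 35.2, 24.6 and 31.0 CPM in ΔMF, and Ppard measured 12.2, 8.42 and 8.12 CPM in WT and 10.4, 10.8 and 12.4 CPM in ΔMF. For both, WT mouse 1 stood well above the other WT mice. Their log2 fold changes were 0.06 ± 0.21 and 0.23 ± 0.17 (SE), and −0.45 and −0.21 between the MS13 mice. The Ppara to Ppard ratio per kb was 1.90 ± 0.17 in WT and 1.73 ± 0.38 in ΔMF.

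Of the 6 receptor and target genes, 5 had a higher ΔMF mean, and 3 with the prefix in the fit. Ucp3, the mitochondrial uncoupling protein of skeletal muscle, rises with circulating fatty acids in fasting. It was at 66.0, 67.2 and 68.1 CPM in WT and at 76.5, 96.9 and 68.5 CPM in ΔMF. The WT mice varied less in this gene than in any other of the set, with a coefficient of variation of 1.58%, and ΔMF mouse 3 lay just above them. Ucp3 was the only gene of the set with every ΔMF mouse above every WT mouse, where 5.2% of all genes were so arranged. The log2 fold change was 0.27 ± 0.12 (SE, edgeR adjusted p = 0.622) with a 95% interval from 0.00 to 0.53, and 0.38 between the MS13 mice. The gene spans 100472990 to 100486432 on the plus strand of chromosome 7.

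Ucp2, its widely expressed neighbour and relative, had a lower mean in ΔMF muscle. Its levels were 8.74, 12.7 and 11.4 CPM in WT and 6.41, 6.96 and 9.71 CPM in ΔMF. WT mouse 1 was below ΔMF mouse 3, so the genotypes overlapped. The log2 fold change was −0.52 with a 95% interval from −0.94 to −0.10 (edgeR adjusted p = 0.601), and −0.38 between the MS13 mice. Per kb, Ucp3 exceeded Ucp2 13.5 ± 2.49 times in WT and 23.6 ± 7.60 times in ΔMF (SD, n = 3 each). The ratio was 15.2 in ΔMF mouse 3 and 16.2 in WT mouse 1, where the groups overlapped. Ucp2 (chromosome 7, 100493337 to 100502020, plus strand) is overlapped by Dnajb13 on the opposite strand. In all, 12 of the 39 genes are overlapped in this way, among them Ucp3, Fabp3, Acadvl, Hadha, Acacb, Acadl and Lipe, and whether the counting used strand was not given in the sources used here. Ucp2 is also known to be expressed in macrophages. Markers of these cells are described further on, and their part in the values of Ucp2 was not tested.

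Pdk4, the kinase that shuts pyruvate out of oxidation when fat is burned, had the widest range of the abundant genes. It measured 419, 435 and 299 CPM in WT and 515, 676 and 236 CPM in ΔMF. ΔMF mice held both the highest and the lowest values. The log2 fold change was 0.31 with a 95% interval from −0.34 to 0.95, and it was −0.03 without ΔMF mouse 2. Acot2, a mitochondrial acyl-CoA thioesterase, averaged 17.6 ± 2.60 CPM in WT and 20.6 ± 3.88 CPM in ΔMF. Its estimated counts held fractions in all 6 mice, as RSEM gives where reads are divided between near-identical sequences, and its value is uncertain. Fractions were also present for Lpl, Slc27a1, Pdk4 and Eci1. Cpt1b, Acadl, Hadhb, Decr1, Etfb and Etfdh overlap another annotated gene on their own strand, and their counts are uncertain to that extent.

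The WT mice were not alike in this pathway. WT mouse 1 was above both MS15 mice in 28 of the 39 genes, where 37.8% of all genes were so arranged, and below both in 5, Angptl4, Plin2, Dgat1, Ucp2 and Ucp3, where 40.1% of all genes were. The median difference of WT mouse 1 from the MS15 mice was 0.21 on the log2 scale over the 39 genes and −0.01 over all genes. WT mouse 1 lay within the range of the ΔMF mice in 24 of the 39, beside 56.9% of all genes. On the first principal component of all tested genes, which held 43.3% of the variance, WT mouse 1 stood at −13.4, the MS15 mice at 25.0 and 22.5, and the ΔMF mice between −17.1 and −1.56. Only MS13 held both genotypes, so in the other mice prefix and genotype cannot be told apart.

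Calls depended on this mouse. Without WT mouse 1, edgeR's adjusted p was under 0.05 and the level higher in ΔMF for 4 of the 39 genes, Acacb (adjusted p = 0.00789), Acadl (0.0124), Etfa (0.0220) and Pnpla2 (0.00281), with 3.6% of all genes so called. Ucp2 was called lower (adjusted p = 0.0315), with 4.17% of all genes so called. At an unadjusted p under 0.05, leaving out WT mouse 1 gave 18 of the 39 genes, with 23.8% of all genes. Leaving out ΔMF mouse 3 gave 6, with 10.2% of all genes. Leaving out WT mouse 3 left 1, and leaving out WT mouse 2, ΔMF mouse 1 or ΔMF mouse 2 left 0, with between 3.69% and 4.60% of all genes. The sum of the 39 genes was 6782, 5776 and 5767 CPM in WT mice 1 to 3 and 6739, 7119 and 6054 CPM in ΔMF mice 1 to 3, and the genotypes overlapped. The mean log2 CPM of the set was 6.39 ± 0.10 in WT and 6.45 ± 0.10 in ΔMF (SD, n = 3 each), a difference of 0.06 that is within the spread between mice. No single gene or sum could have reached an exact two-sided permutation p under 0.10 with 3 mice against 3.

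Some markers of other cell types and of the daily clock also set the MS15 mice apart from the rest, and others did not. Unadjusted calls among them are to be read beside the 4.6% of all genes called lower and the 3.35% called higher. The 8 macrophage and leukocyte markers summed to 122, 330 and 270 CPM in WT and 114, 113 and 176 CPM in ΔMF. All 8 were lower in ΔMF at an unadjusted edgeR p under 0.05, from Cd163 (17.5, 30.8 and 30.2 against 13.3, 13.2 and 18.6 CPM) to Lyz2, and none passed the adjusted limit. The 8 endothelial markers summed to 360, 275 and 282 CPM in WT and 353, 370 and 351 CPM in ΔMF, with Pecam1 and Kdr higher at that limit. The 7 adipocyte markers tested of 10 listed summed to between 185 and 243 CPM in WT and between 194 and 209 CPM in ΔMF, with Adipoq and Retn lower at that limit. Of these 7, 6 had a log2 fold change below 0 and Fabp4 one above it, with a median of −0.45. Adrb3, Cidea and Ucp1 did not pass the filter on low counts. Cd36, Lpl and Plin2 are known to be expressed in such cells too. In a whole muscle, fewer cells of a type and less RNA per cell cannot be told apart, and the part of these cells in the differences above was not tested.

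The 6 fibroblast markers summed to 1906, 2248 and 2263 CPM in WT and 1868, 1685 and 2635 CPM in ΔMF. ΔMF mouse 3 was the highest of all. Dcn and Lum were lower in ΔMF at an unadjusted edgeR p under 0.05. Of the 6, Col1a1, Col1a2 and Col3a1 had a log2 fold change above 0, and the median was −0.05. Blood markers, 5 in number, summed to 777, 1227 and 622 CPM in WT and 371, 504 and 805 CPM in ΔMF, with the MS15 mice at opposite ends of the WT range and with Hbb-bs, Hbb-bt and Alas2 lower. Among the 7 skeletal muscle markers, Myod1 was lower at an unadjusted edgeR p under 0.05. Of the 7, Ttn and Mb had a log2 fold change above 0 and 5 one below, with a median of −0.09. Every ΔMF mouse lay above every WT mouse in Mb and below every WT mouse in Ckm, beside 5.2% and 5.57% of all genes. Among fibre type genes, Myh2 and Myh1, myosins of the fast oxidative and intermediate fibres, were higher at the same unadjusted limit. The log2 fold change was above 0 in 4 of 8 slow and oxidative and 3 of 8 fast markers. The slow and oxidative markers summed to 3244, 2518 and 2151 CPM in WT and 3407, 3151 and 3016 CPM in ΔMF. Dbp, an output gene of the circadian clock, was at 61.8, 15.5 and 12.1 CPM in WT and 69.2, 68.0 and 84.7 CPM in ΔMF, and the clock repressor Nr1d1 at 104, 51.4 and 26.7 CPM and 127, 110 and 90.7 CPM. Both placed WT mouse 1 apart from the MS15 mice. They belong to a list of 10 clock and glucocorticoid genes and were the only 2 of it at an unadjusted edgeR p under 0.05. Of the 10, 8 had a log2 fold change above 0 and 2 below, with a median of 0.13. The part of these genes in the values of Pdk4, Ucp3 and the other genes was not tested.

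**Figure D5:**
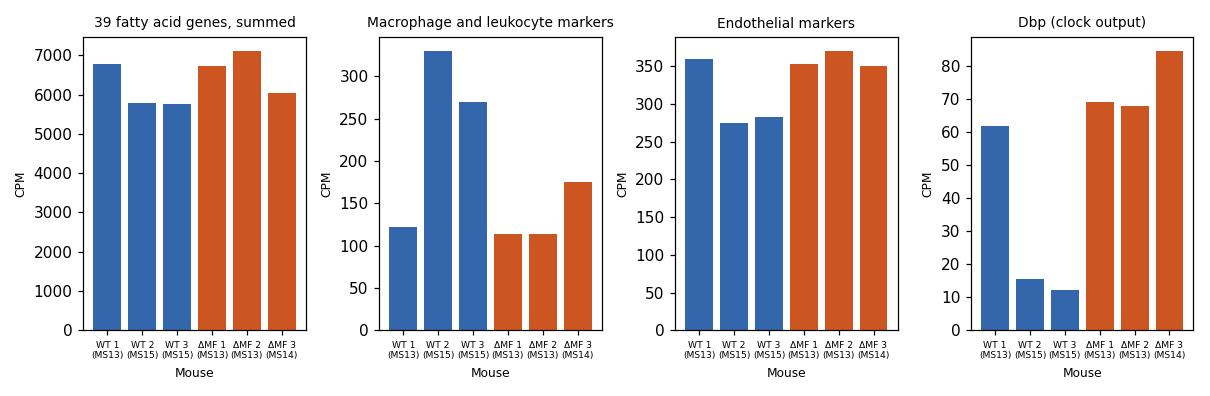
Sum over the 39 fatty acid genes, 8 macrophage and leukocyte markers and 8 endothelial markers, and the level of Dbp, in each mouse (bars, CPM from 0, blue for WT and orange for ΔMF). WT mouse 1 lies within the ΔMF range in the first 3 panels, which are sums, and just under it for Dbp, and the MS15 mice lie outside it in all 4. Taken singly, 7 of the 8 macrophage and leukocyte markers but 1 of the 8 endothelial markers, Tek, place WT mouse 1 within that range, beside 56.9% of all genes.

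A wider fatty acid programme held no call either when all 6 mice were compared. A further list of 64 genes of transport, peroxisomal oxidation, esterification, lipolysis and synthesis had 62 tested members, and 0 of them passed edgeR's adjusted limit. Before adjustment 4 (6.45%) were lower and 0 higher in ΔMF muscle at the limit of 0.05, beside 4.6% and 3.35% of all genes. DESeq2 and limma-voom likewise gave 0 after and 4 before adjustment. The median log2 fold change was −0.02, with 28 genes above 0 and 34 below. Calls depended on WT mouse 1 here too. Without it, edgeR's adjusted p was under 0.05 for Vldlr and Gpam, higher in ΔMF, and for Acsl3 and Fasn, lower. These were 3.23% of the 62 in each direction, beside 3.6% of all genes called higher and 4.17% called lower.

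Of the 6 with the smallest unadjusted p, 5 had a lower mean in ΔMF muscle. Fasn, fatty acid synthase, was at 47.6, 102 and 57.9 CPM in WT and at 48.6, 31.8 and 48.5 CPM in ΔMF, a log2 fold change of −0.69 ± 0.25 (SE), with WT mouse 2 far above the rest. Agpat2, an acyltransferase of glycerolipid synthesis, was at 8.26, 9.87 and 7.41 CPM in WT and at 7.15, 5.61 and 5.96 CPM in ΔMF, and Acsl6, a long-chain acyl-CoA synthetase, at 32.2, 27.5 and 38.5 CPM and at 25.3, 24.6 and 27.2 CPM. In both the genotypes did not overlap. Of the 62 genes, 4 lay wholly below WT in ΔMF muscle, these and Ech1 and Rxra, and 1 wholly above, Slc22a5, the last 3 named for these values, beside 5.57% and 5.2% of all genes. Plin3 and Scd1, a droplet coat protein and the stearoyl-CoA desaturase, had log2 fold changes of −0.34 ± 0.15 and −0.37 ± 0.18 (SE). Gpam, the mitochondrial glycerol-3-phosphate acyltransferase, was at 244, 182 and 176 CPM in WT and at 257, 250 and 220 CPM in ΔMF, with WT mouse 1 within the ΔMF range.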

How the data were processed

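Total RNA of pooled hind-limb muscles was sequenced after ribosomal RNA depletion with a stranded kit. The submitters' processing notes name CASAVA 1.8.2, cutadapt 1.10, Bowtie2 2.2.7, TopHat2 2.1.1, RSEM 1.2.30 and limma, and the builds mm10 and GRCm38. The deposited values are estimated counts per gene, not normalised, which the authors made with RSEM, and 2919 of 20632 genes held a fraction in some mouse. They were rounded to whole counts. Depth was 8426022 to 12469335 counts per mouse. Every sample column was assigned.

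Genes passing filterByExpr (minimum count 10, minimum total 15) were scaled by TMM and tested by edgeR 4.0.16 (R 4.3.3) with glmQLFit and glmQLFTest on genotype, with Benjamini-Hochberg adjustment over all 12116 genes and a limit of 0.05. Standard errors and 95% intervals were taken from the quasi-likelihood statistic. The script was tested on simulated data. Alternatives were DESeq2 1.42.0, limma-voom (limma 3.58.1), other scalings and filters, a robust fit, the title prefix as a term, each mouse left out and the MS13 mice alone. Intervals and floors cover the spread between these 6 mice or counting error only. No 2 libraries agreed within sampling noise.

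Coordinates and transcript lengths (the principal protein-coding transcript) are from GENCODE M21, GRCm38. Values per mouse are given for genes whose genotypes did not overlap, the 5 largest fold changes, 11 genes named in advance for their role (Cd36, Lpl, Cpt1a, Cpt1b, Acadvl, Hadha, Pdk4, Ucp3, Pnpla2, Ppard and Ppara) and 6 other fatty acid genes with the smallest unadjusted p. The members and lists were chosen with earlier results of these data known.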

Additional observations from a re-analysis of the deposited data

How the results depend on the processing

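No paired analysis was possible because the replicate numbers were given in accession order and the titles do not tie a WT mouse to a ΔMF mouse. The number of the 39 genes below an unadjusted p of 0.05 was 2 with DESeq2, and with each mouse left out it ran from 0 to 18, while the number below an adjusted p of 0.05 ran from 0 to 5. Both maxima were without WT mouse 1. Genes whose genotypes did not overlap numbered 5 with scaling by total count and from 2 to 22 with each mouse left out, where fewer mice make separation easier. The share of all genes so arranged in these settings is not given here, so these counts cannot be read as particular to the set. Genes with a lower ΔMF mean numbered 16 with scaling by total count, 23 with the prefix as a term, 23 between the MS13 mice alone, and from 8 to 14 with each mouse left out. With each mouse left out, the median log2 fold change ran from 0.042 without ΔMF mouse 2 to 0.19 without WT mouse 1. The median log2 fold change was −0.023 both with the prefix and between the MS13 mice, on which the genotype term of that fit rests.

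Scaling by total count shifted the median of all genes by −0.06 and turned the log2 fold change of Acadm (−0.0056), Acaa2 (−0.0066), Hadhb (−0.0099), Slc25a20 (−0.014), Crat (−0.021), Etfb (−0.039) and Lipe (−0.054). Upper quartile scaling turned that of Lipe (−0.0033). In the fit with the prefix the genotype term rests on the MS13 mice, so its values repeat those between these mice. Both with the prefix as a term and between the MS13 mice, 16 genes turned, with values of −0.018 for Slc25a20 and Crat, −0.023 for Etfb, −0.031 for Cpt1b, −0.048 for Acadvl, −0.11 for Cpt2, Acaa2 and Acacb, −0.20 for Pnpla2 and −0.21 for Ppard. The values were −0.024 and −0.025 for Acadl, −0.047 and −0.048 for Acsl1, −0.074 and −0.073 for Dgat2, −0.082 and −0.086 for Plin5, −0.43 and −0.45 for Ppara, and 0.94 and 0.88 for Angptl4. With each mouse left out, the sign also turned for Slc27a1 (−0.059 to 0.029), Ppara (−0.090 to 0.36), Crat (−0.0064 to 0.070), Acaa2 (−0.013 to 0.14), Etfb (−0.0077 to 0.045), Mlycd (−0.018 to 0.17), Lipe (−0.063 to 0.10), Plin5 (−0.028 to 0.31), Pdk4 (−0.032 to 0.63) and Cd36 (−0.015 to 0.21). The cause was not tested. Of the 39, 29 kept their direction with every mouse left out. Tests between the MS13 mice alone were not run, since only 1 was WT. With 3 mice a genotype, a difference smaller than the distance from its estimate to the end of its interval could not be told from 0, even before adjustment.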
